A study of Mus musculus with 6 samples.

Results

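The 9 genes described here encode the chains of the type I and type II interferon receptors (Ifnar1, Ifnar2, Ifngr1 and Ifngr2), the Janus kinases bound to them (Jak1, Jak2 and Tyk2) and a pair of SOCS inhibitors (Socs1 and Socs3). They were chosen by symbol, and all 9 were found among the 23366 genes of the table. RNA of the frontal cortex was sequenced, 1 library each, from 3 microglia-depleted mice at d10 post depletion (A4 to A6) and from 3 control littermates (A1 to A3). All mice were on a C57BL/6 background, carried CX3CR1-CreERT2+/- and were injected with tamoxifen. The depleted mice also carried iDTR+/-, a diphtheria toxin receptor switched on by Cre, and received diphtheria toxin. Cre was driven by the CX3CR1 promoter, so cells other than microglia that use this promoter could also carry the receptor. The sources describe a wait between tamoxifen and toxin, in which blood monocytes are renewed from precursors that lack the receptor. The sources used here do not state whether control mice received the toxin, so effects of toxin and depletion cannot be told apart. The iDTR genotype also went with group, so its effects cannot be told apart from those of depletion either. The mice are described as adult and as matched for age and sex, and ages are not given in the sources used here. By d10 microglia had repopulated the brain, and the comparison asks how cortical transcripts differed at that time.

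Interferons signal through paired receptor chains that have no kinase activity of their own. Type I interferons bind IFNAR1 and IFNAR2, which carry TYK2 and JAK1, and interferon gamma binds IFNGR1 and IFNGR2, which carry JAK1 and JAK2. The kinases phosphorylate STAT proteins. The ISGF3 complex, which holds STAT2 and IRF9, binds ISRE sites, while STAT dimers bind GAS sites. SOCS1 and SOCS3 are induced by STATs and inhibit the kinases, and SOCS3 is best known for restraining gp130 cytokine receptors. Microglia, astrocytes, neurons and endothelial cells of the brain all carry interferon receptors.

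Mice A3 and A4 stood apart from the other mice in sex-linked genes. Xist, transcribed from the inactive X chromosome, was at 46.7, 45.2 and 4.74 FPKM in control mice A1 to A3 and at 30.9, 40.1 and 38.1 FPKM in depleted mice A4 to A6. The Y-linked genes Ddx3y, Eif2s3y, Kdm5d and Uty were at 1.09, 3.47, 0.68 and 0.32 FPKM in A4. The sum of these 4 genes was 5.56 FPKM in A4 and at most 0.16 FPKM in any other mouse, A3 included. A4 therefore held Xist and Y-linked transcripts together, although the methods describe sex-matched animals, and the source of this signal was not tested. Whether this library held RNA of more than 1 mouse, or samples were exchanged, was not tested either, and would change what each value of A4 stands for. In Gm20878, A4 was at 4.24 FPKM and every control at 0. In Fcrls, a microglia marker, A4 was at 3.83 FPKM and controls at 8.19 to 13.3 FPKM. A4 lay on the side of A5 and A6 in these genes, which their choice fixed, since they were picked because their groups differed. In Hba-a2, A4 and every control were listed at 0, with A5 and A6 at 65.04 and 29.98 FPKM. Genes listed at 0 numbered 5903 in A4, 5834 to 6033 in controls, and 7144 and 6849 in A5 and A6. These numbers were not adjusted for depth, and what they mean for A4 was not tested. Labels give no sex, litter or batch for any mouse, and the part of the sex-linked differences in the results was not tested. Several results are therefore also given without A4, or without A3 and A4 together.

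FPKM scales fragments to transcript length and to the mapped fragments of a library, so levels can be compared between genes. The spacing of low values gave about 14.5, 20.4 and 18.3 M fragments behind the control mice (A1 to A3), and about 13.7 and 11.2 M behind A4 and A6. For A5 the spacing was matched nearly as well by 7.13 M as by 10.7 M fragments. In these estimates every depleted mouse was below every control, so effects of depth and group cannot be told apart. Precision also differed strongly between the 9 genes. Ifngr1 rested on about 210 to 314 fragments per mouse. Socs3 rested on 13.9 to 67.7 fragments, and Socs1 on 2.3 to 33.1, when the longest coding transcript is used for the length. At the lower depth A5 would rest on 140.2 fragments for Ifngr1, 9.3 for Socs3 and 4.8 for Socs1.

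None of the 8 members tested passed the threshold. The comparison used limma on log2(FPKM + 1), at an adjusted p under 0.1, and took in 14385 genes whose mean reached 0.5 FPKM. Socs1 was under this minimum. Over all genes tested, 4 passed, which is 0.0278%. At an unadjusted p under 0.05, 1 of 8 members and 1515 of all genes tested (10.5%) were counted. In 1 of 8 members all depleted mice were above all controls, which held for 8.21% of all genes tested. In 0 of 8 were all depleted mice below all controls, against 9.38% of all genes. In either direction, groups were separate for 1 of 8 members and 17.6% of all genes. With a mouse left out, 2 of 8 members were separate without A3 and without A4 and 1 of 8 otherwise, against 23.6%, 26%, 24.7%, 30.2%, 32.7% and 31.5% of all genes without A1 to A6. With 8 members tested, these counts lie near the background and say nothing particular about them. The median log2 fold change was 0.062 over the 8 members and -0.0085 over all genes tested. Because 1 is added before the logarithm, differences of low genes come out too small, and intervals below are at 95% and not adjusted for the number of genes.

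The 4 genes past the threshold, named after their values were seen, were Gm20878, Gm21586, BC002163 and 2700060E02Rik. Gm20878 and Gm21586 had identical values in every mouse, so their fragments cannot be told apart. The number past the threshold was 2 without A1, 29 without A5 and 8 without A6, and 5 without A3 and A4. In each of these fits the number of members past the threshold was 0.

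**Figure D1:**
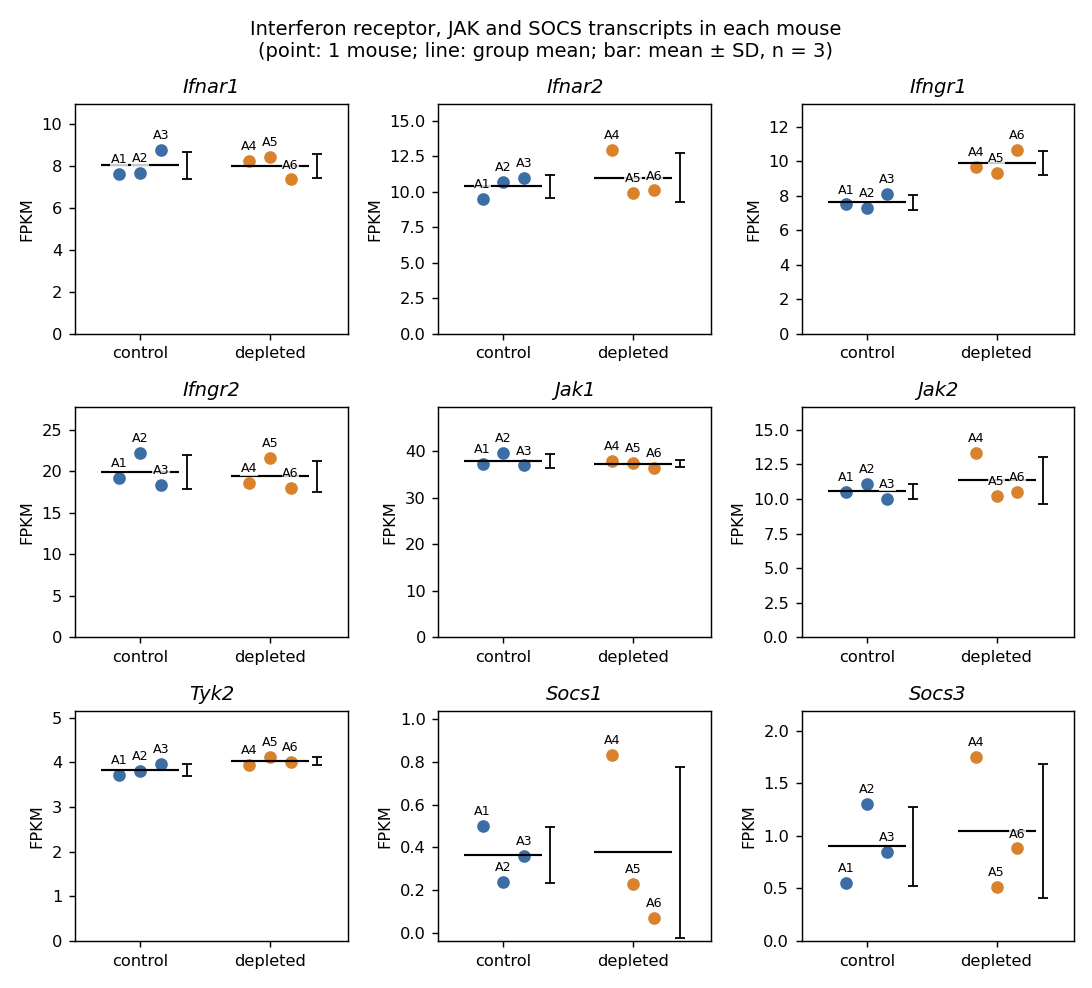
FPKM of each member (vertical axis, a separate scale per gene) in the 3 control and 3 depleted mice. Points are mice, horizontal lines are group means and bars are mean ± SD (n = 3). Groups are separate only for Ifngr1, and A4 is the highest mouse for Ifnar2, Jak2, Socs1 and Socs3.

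Type I receptor chains were at like levels in both groups. Ifnar1, the signalling chain that carries TYK2, was at 7.63, 7.67 and 8.78 FPKM in control (A1 to A3) and at 8.23, 8.43 and 7.36 FPKM in depleted mice (A4 to A6). The highest mouse was a control and the lowest a depleted mouse, and the groups overlapped. Means were 8.03 ± 0.65 FPKM in control and 8.01 ± 0.57 FPKM in depleted mice (SD, n = 3). On the log2 scale the fold change was -0.0027 (interval -0.24 to 0.24), with an adjusted p of 0.994 in limma. Ifnar2, the high-affinity binding chain, was at 9.48, 10.67 and 10.99 FPKM in control and at 12.95, 9.93 and 10.08 FPKM in depleted mice. Only A4 lay above the controls, while A5 and A6 lay among them. Its log2 fold change was 0.068 (interval -0.21 to 0.35, adjusted p = 0.871 in limma), and it was -0.046 without A4. Exact two-sided permutation tests of the means gave p = 1.0 for Ifnar1 and p = 0.8 for Ifnar2, where 3 mice against 3 cannot go below 0.1. The intervals leave room for a difference of either sign, so equal levels were not shown.

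Windows of 300 bases around the start of each member, 250 before it and 50 after it, were searched for the letters TTCNNNGAA (GAS, which reads the same on both strands) and GAAANNGAA (the ISRE core, on both strands). The 9 members each had 1 window in RefSeq (GRCm38.p6). GAS letters were in 3 of the 9 windows, those of Ifnar2 and Socs3 among them, and ISRE core letters in 1, that of Socs1, while 5 members had neither. Of all 32851 windows of this length, 8.3% held GAS letters and 8.56% ISRE core letters. The stretch below shows the match in Ifnar2, 5′ to 3′ on the + strand, with the match in capitals, at chr16:91372549-91372597. It begins 214 bases before the start.
Ifnar2: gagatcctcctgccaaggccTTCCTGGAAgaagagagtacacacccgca
A match is a description of the letters and not of a bound site.

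Ifngr1, the ligand-binding chain of the interferon gamma receptor, was the member with the largest difference. Its level was 7.50, 7.28 and 8.12 FPKM in control (A1 to A3) and 9.68, 9.31 and 10.67 FPKM in depleted mice (A4 to A6). The lowest depleted mouse lay above the highest control, so the groups did not overlap, and A4 lay between the other 2 depleted mice. Means were 7.63 ± 0.44 FPKM in control and 9.89 ± 0.70 FPKM in depleted mice (SD, n = 3), a ratio of 1.30. The log2 fold change was 0.33 (interval 0.11 to 0.56). This difference did not pass the threshold in limma, with an unadjusted p of 0.00940 and an adjusted p of 0.378. Among all genes tested, 346 had an unadjusted p at or under that of Ifngr1. An exact permutation test gave its lowest attainable p, 0.1. The log2 fold change ran from 0.28 to 0.39 over the alternatives tried, and the adjusted p from 0.242 to 0.892. It was 0.35 without A4 and 0.39 without A3 and A4, so the direction did not rest on either mouse. In whole tissue, more cells carrying Ifngr1 and more Ifngr1 RNA per cell cannot be told apart.

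The 100 bases before the start of Ifngr1 (chr10:19591849-19591948, + strand, GRCm38.p6, RefSeq) are shown because this member differed most, and they hold no capitals since neither set of letters was found in its window.
Ifngr1: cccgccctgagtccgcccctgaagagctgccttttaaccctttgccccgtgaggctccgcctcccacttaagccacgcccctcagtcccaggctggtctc
This says only that these letters are not in the window.

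Ifngr2, the chain that carries JAK2, was at 19.20, 22.18 and 18.33 FPKM in control and at 18.58, 21.57 and 18.00 FPKM in depleted mice. One mouse of each group, A2 and A5, was above the rest, and the groups overlapped. Its log2 fold change was -0.036 (interval -0.28 to 0.21, adjusted p = 0.925 in limma), and the exact permutation p was 0.6. Within each mouse Ifngr1 was lower than Ifngr2, with a ratio of 0.391, 0.328 and 0.443 in control and 0.521, 0.432 and 0.593 in depleted mice. The lowest depleted ratio, in A5, was under the highest control ratio, in A3, so the groups overlapped for the ratio although they did not for Ifngr1 itself. The ratio of Ifnar1 to Ifnar2 was 0.805, 0.719 and 0.799 in control and 0.636, 0.849 and 0.730 in depleted mice, with A4 lowest and A5 highest.

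**Figure D2:**
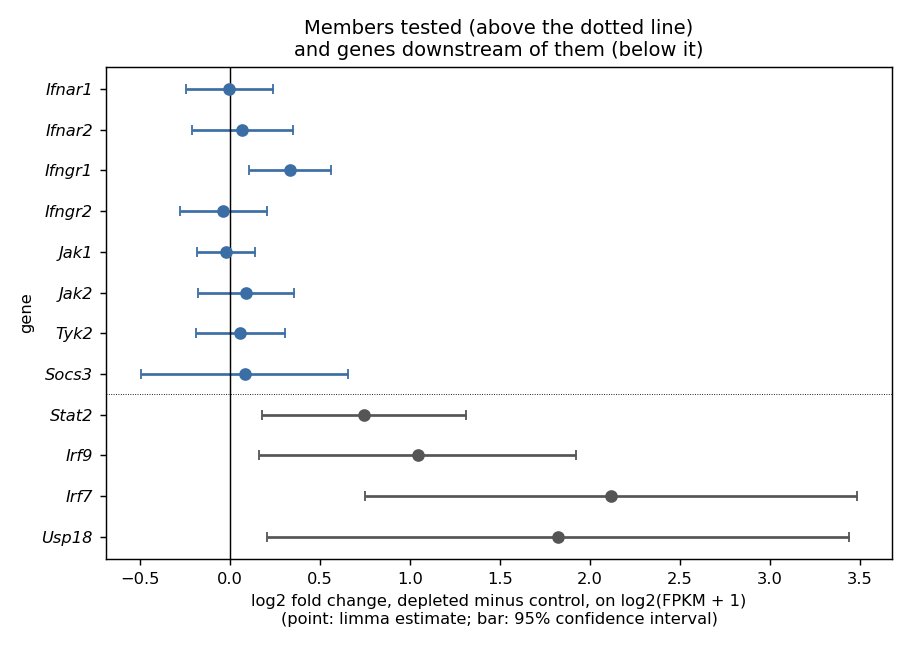
Log2 fold change of depleted minus control mice on log2(FPKM + 1) for the 8 members tested and for 4 genes downstream of them, with 95% confidence intervals from limma. Intervals of 7 members include 0, that of Ifngr1 runs from 0.11 to 0.56, and those of Stat2, Irf9, Irf7 and Usp18 are above 0, although none of these genes passed the adjusted threshold.

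Kinase transcripts differed little between groups, A4 apart for Jak2. Jak1, shared by both receptors, was at 37.22, 39.55 and 36.93 FPKM in control and at 37.85, 37.56 and 36.47 FPKM in depleted mice. It was the most abundant member in every mouse, and its groups overlapped. Jak1 had a log2 fold change of -0.022, with the narrowest interval of the members tested (-0.18 to 0.14, adjusted p = 0.935 in limma). Jak2, the kinase of IFNGR2, was at 10.50, 11.11 and 10.02 FPKM in control and at 13.30, 10.21 and 10.49 FPKM in depleted mice. As for Ifnar2, only A4 lay above the controls. Its log2 fold change of 0.088 (interval -0.18 to 0.35, adjusted p = 0.815 in limma) was -0.023 without A4. Tyk2, the kinase of IFNAR1, was at 3.71, 3.80 and 3.97 FPKM in control and at 3.94, 4.12 and 4.0 FPKM in depleted mice. A4 lay just under A3, so the groups overlapped by this pair of mice alone. Tyk2 had a log2 fold change of 0.057 (interval -0.19 to 0.30, adjusted p = 0.879 in limma). Exact permutation p-values were 0.7 for Jak1, 0.7 for Jak2 and 0.2 for Tyk2.

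SOCS transcripts were the least abundant members and varied most between mice. Socs3, the inhibitor of gp130 signalling, was at 0.55, 1.30 and 0.85 FPKM in control and at 1.75, 0.51 and 0.88 FPKM in depleted mice. The highest and the lowest mouse, A4 and A5, were both depleted mice. Socs3 had a log2 fold change of 0.081, with the widest interval of the members tested (-0.49 to 0.65, adjusted p = 0.932 in limma), and it was -0.056 without A1 and -0.15 without A4. Socs1, the inhibitor of interferon receptor signalling, was at 0.50, 0.24 and 0.36 FPKM in control and at 0.83, 0.23 and 0.07 FPKM in depleted mice. Here too A4 was highest, while A5 and A6 were the lowest of the 6 mice. Means were 0.37 ± 0.13 FPKM in control and 0.38 ± 0.40 FPKM in depleted mice (SD, n = 3). The log2 difference was -0.024 with all mice and -0.25 without A4, and it turned to 0.046 without A1, 0.038 without A5 and 0.14 without A6. With few fragments and a wide spread between mice, a direction could not be given for Socs1. The exact permutation p was 1.0 for Socs1 and 0.8 for Socs3.

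The stretches of the SOCS windows that hold the searched letters are shown because these are the members that STATs are known to induce (RefSeq, GRCm38.p6, 5′ to 3′ on the - strand). In Socs1 (chr16:10785585-10785639) a pair of overlapping ISRE core matches, GAAAGAGAA and GAAACCGAA, begin 83 and 77 bases before the start. In Socs3 (chr11:117969492-117969540) a GAS match begins 154 bases before the start.
Socs1: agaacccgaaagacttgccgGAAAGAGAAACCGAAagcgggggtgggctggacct
Socs3: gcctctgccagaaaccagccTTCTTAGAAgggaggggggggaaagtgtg

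By mean FPKM over the 6 mice, the order of levels was Jak1 at 37.6, Ifngr2 at 19.6, Jak2 at 10.9, Ifnar2 at 10.7, Ifngr1 at 8.76, Ifnar1 at 8.02, Tyk2 at 3.92, Socs3 at 0.97 and Socs1 at 0.37. Jak1, Ifngr2 and Tyk2 were separate from their neighbours in this order in all 6 mice, with no overlap of ranges. Ranges overlapped between Jak2 and Ifnar2, between Ifnar2 and Ifngr1 and between Ifngr1 and Ifnar1. Ifngr1 was above Ifnar1 in 3 of 6 mice, namely the 3 depleted ones. Socs3 was above Socs1 within each of the 6 mice although their ranges overlapped. Of the 9 members, 4 were highest in A4 (Ifnar2, Jak2, Socs1 and Socs3) and 4 were lowest in A6 (Ifnar1, Ifngr2, Jak1 and Socs1).

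Genes with the profile most like a member were found by the root mean square difference of log2(FPKM + 1) over the 6 mice, after each gene's control mean was subtracted. For Ifngr1 these were Zfp105 (0.0141), Ankmy2 (0.0422) and Gna15 (0.0428). For Ifnar2 they were Clasrp (0.0313), Ppp2r2d (0.0323) and Tgm3 (0.0324), and for Jak2 they were Dkk3 (0.0167), Cirh1a (0.0275) and Smek1 (0.0299). For Socs3 the nearest were S100a3 (0.0745), Lpxn (0.101) and Nxph2 (0.102), which is a looser likeness. Zfp105 was at 2.80, 2.62 and 3.0 FPKM in control and at 3.67, 3.48 and 4.15 FPKM in depleted mice. Its groups were separate as well, which its choice by likeness to Ifngr1 fixed.

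Interferon ligand transcripts were at or near 0. Of 21 ligand genes searched, 19 were in the table, 16 were listed at 0 in every mouse and 0 could be tested. Ifng was listed at 0 in all mice. Ifnb1 was listed at 0.28 FPKM in A4 and at 0 in the other mice. The other ligands above 0 were Ifna14, at 0.12 FPKM in A1, and Ifnz, at 0.05 FPKM in A1 and 0.07 FPKM in A4.

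Stat2, a transcription factor downstream of the receptors, was at 6.11, 6.55 and 7.21 FPKM in control and at 19.2, 9.08 and 9.22 FPKM in depleted mice. The groups did not overlap, and A4 was far above the other mice. The log2 fold change of Stat2 was 0.75 (interval 0.18 to 1.31, adjusted p = 0.396 in limma), and the mean difference was 0.42 without A4. Irf9, its partner in ISGF3, was at 5.56, 4.56 and 4.90 FPKM in control and at 24.95, 7.17 and 7.88 FPKM in depleted mice, again with A4 far above the rest and no overlap. Its log2 fold change of 1.04 (interval 0.16 to 1.92, adjusted p = 0.418 in limma) was 0.51 without A4. Of the 8 genes of the list of STATs and Irf9, 4 were higher and 4 lower (3 to 5 higher over the alternatives), with Stat6 lowest at -0.34. Usp18, an inhibitor that acts at IFNAR2, was at 0.69, 0.66 and 0.55 FPKM in control and at 22.21, 1.58 and 2.20 FPKM in depleted mice. Among 12 other negative regulators it had the largest log2 fold change, 1.82, which was 0.82 without A4, while Sh2b3 had the smallest, -0.22. Usp18 is also counted among the ISGF3 targets described below, so these lists share this gene. The median of the negative regulators, 0.035, was 0.021 without A3, 0.021 without A4 and 0.0052 without both, and it was 0.058 without A5. In A5 both Socs1 and Socs3 were just below the lowest control, while Usp18 was above all controls.

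**Figure D3:**
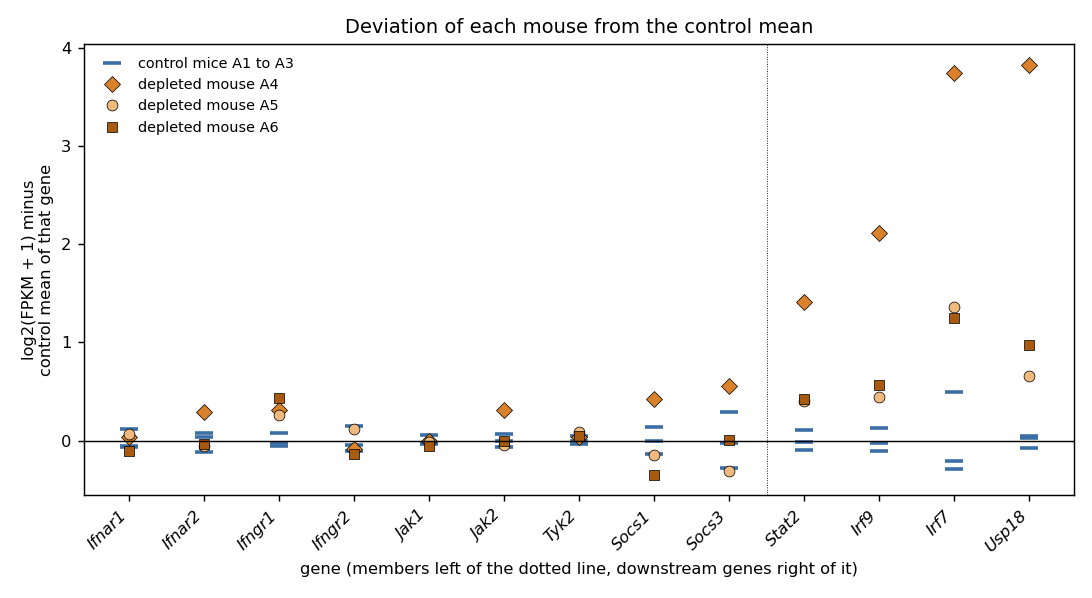
Deviation of each mouse from the control mean on log2(FPKM + 1) for the 9 members and 4 downstream genes. Control mice are blue dashes and depleted mice are orange symbols. A4 deviates by 0.43 and 0.55 in Socs1 and Socs3 and by 1.41 and 3.83 in Stat2 and Usp18, and A5 and A6 lie above the control mice in all 4 downstream genes.

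Known targets of ISGF3 were higher in depleted mice as a list. This list and that of interferon gamma targets were chosen with earlier results of these data known. Their counts therefore describe the lists and are not independent support. Of 19 ISGF3 targets tested, 19 had a higher mean (18 or 19 over the alternatives) and 17 had groups that did not overlap. In limma 0 passed the adjusted threshold, and 14 were higher at an unadjusted p under 0.05. Over all genes tested, 8.21% had every depleted mouse above every control and 4.79% were higher at an unadjusted p under 0.05. The list median was 1.72, against -0.0085 over all genes tested, and it was 0.98 without A4 and 0.86 without A3 and A4. Cxcl10 had the largest log2 fold change, 2.69, and Ifit2, whose groups overlapped, the smallest, 0.69. Without A4 these were 1.67 and 0.11. Irf7, a transcription factor of this list, was at 1.82, 0.64 and 0.74 FPKM in control and at 25.81, 4.14 and 3.75 FPKM in depleted mice. Of 14 interferon gamma targets tested, 13 were higher, 8 at an unadjusted p under 0.05 (4.79% over all genes) and 0 past the threshold, and 8 had every depleted mouse above every control (8.21% over all genes), with Iigp1 highest at 1.42 and Irf1 lowest at -0.15. Without A4 these were 0.68 and -0.57, and Irf1 was below all controls in A5 and A6. The median of this list was 1.04, and it was 0.48 without A4 and 0.50 without A3 and A4. Median deviations of the ISGF3 targets from control were 3.06 in A4, 0.91 in A5 and 0.97 in A6.

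Relatives of the members showed no common direction. In the list of the remaining JAK and SOCS genes 3 of 7 were higher, with Socs2 highest at 0.34 and Cish lowest at -0.34, and the median of -0.098 was 0.032 without A4, 0.021 without A6 and -0.0054 without A3 and A4. Groups did not overlap for 1 of 7 genes in each direction, Socs2 and Cish, which is near the share over all genes tested (8.21% above and 9.38% below) and not a result about this list. Socs2 was at 5.31, 6.78 and 4.52 FPKM in control and at 7.04, 7.65 and 6.95 FPKM in depleted mice, with an adjusted p of 0.451 in limma. Cish was at 3.50, 3.69 and 3.46 FPKM in control and at 2.27, 2.84 and 2.66 FPKM in depleted mice, with an adjusted p of 0.409 in limma. In type III interferon and IL-10 receptor chains 2 genes were tested, Il10ra at 0.33 and Il10rb at -0.030 (-0.11 to 0.10 over the alternatives). For Il10ra every depleted mouse was above every control, as for 8.21% of all genes tested, while the groups of Il10rb overlapped. Cytokines and receptors of the gp130 family, which Socs3 restrains, were lower in 6 of 9 genes tested, with a median of -0.11. Osmr was highest at 0.58 and Lifr lowest at -0.20, which was -0.11 without A5. Of these 9 genes, 1 (Osmr) had every depleted mouse above every control, and 2 (Lifr among them) had every depleted mouse below. The shares over all genes tested were 8.21% and 9.38%, and so few genes do not make this a result about the list. STAT3 targets shared with Socs3 were higher in 8 of 11, but in 3 to 9 over the alternatives and in 3 without A4. Timp1 was highest at 1.00 (0.54 without A4) and Myc lowest at -0.22 (-0.39 to -0.00096 over the alternatives). The list median of 0.20 was -0.061 without A3 and A4, and -0.086 without A4, the mouse in which Socs3 was also highest. With each mouse left out in turn, this median ran from -0.086 to 0.52, the latter without A6. None of the genes of these lists passed the threshold in limma.

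**Figure D4:**
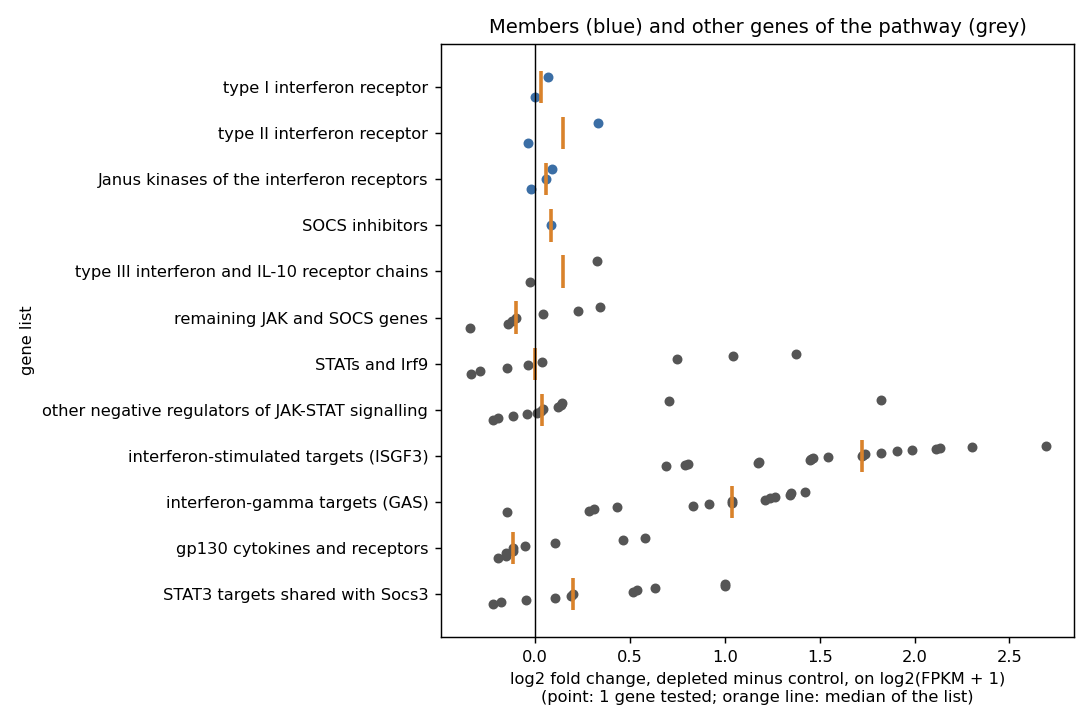
Log2 fold change of every gene tested, depleted minus control on log2(FPKM + 1), for the members by role (blue) and for the other pathway lists (grey), with list medians in orange. Members lie between -0.036 and 0.33, and ISGF3 targets between 0.69 and 2.69. Usp18 is plotted both among other negative regulators and among ISGF3 targets.

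Cell type markers were measured beside the members, since most members are carried by many cell types. Of 10 microglia markers, 7 were higher and 3 lower (3 to 8 higher over the alternatives). Their median of 0.066 was 0.16 without A1, -0.028 without A4 and -0.061 without A3 and A4, and their summed level was 125, 103 and 113 FPKM in control and 137, 106 and 128 FPKM in depleted mice. Aif1 had the largest log2 fold change (0.74) and Fcrls the smallest (-0.90). P2ry12 was at 9.57, 10.24 and 8.50 FPKM in control and at 7.18, 6.45 and 7.91 FPKM in depleted mice, while Cx3cr1 (0.025) and Tmem119 (0.16) had overlapping groups and were at -0.026 and -0.039 without A4. Monocyte markers were summed at 12.8, 10.6 and 17.2 FPKM in control and at 30.9, 18.9 and 18.0 FPKM in depleted mice, with Lyz2 most abundant. The 3 tested were higher, from Lyz2 at 0.54 to S100a4 at 0.66, but the groups overlapped for each. Their median of 0.62 was 0.36 without A4 and 0.31 without A3 and A4, and S100a4 was at 0.28 without A4. Ccr2 was at most 0.24 FPKM in any mouse, and Ly6c2 was at 1.73 FPKM in A4 and 0.15 to 0.88 FPKM in the other mice. In T and NK cells Ncr1 and Gzmb were listed at 0 in every mouse, Cd3e was at most 0.07 FPKM, and Cd4, the 1 gene tested, was at -0.20. Cd3d was at 1.08 FPKM in A4 and at most 0.13 FPKM in the other mice, and Cd3g at 0.42 FPKM in A4 and at most 0.05 FPKM in the others. The neutrophil marker S100a8 was at 2.24, 1.61 and 1.66 FPKM in control and at 0.74, 4.98 and 0.45 FPKM in depleted mice, with A5 above the rest. Its log2 fold change of -0.19 was 0.061 without A4 and -0.83 without A5, and S100a9 was at -0.64.

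Choroid plexus markers were lower in 7 of 7, with a median of -0.43 and sums of 186, 326 and 169 FPKM in control and 72.2, 46.9 and 66.1 FPKM in depleted mice, most of it Ttr (-1.91), while Kl was nearest to 0 at -0.23. Oligodendrocyte markers were lower in 8 of 8, with a median of -0.22, from Mag at -0.47 (-0.28 without A4) to Cldn11 at -0.071 (-0.23 to 0.072 over the alternatives). Astrocyte markers had a median of -0.14, with Gfap at 1.00 and Aldh1l1 at -0.21, which were 0.54 and -0.13 without A4. Endothelial markers had a median of 0.12, with Pecam1 at 0.34, Cldn5 at 0.31 and Itm2a at -0.21, the last at -0.054 without A4. Cortical neuron markers had a median of -0.047, from Neurod6 at -0.32 (-0.44 to -0.20 over the alternatives) to Gad1 at 0.056. This median was 0.027 without A4, -0.091 without A1 and -0.0010 without A2. Rbfox3, a marker of neurons in most brain regions, was at 78.0 to 89.41 FPKM, which does not tell cortex from other regions. With each mouse left out in turn, the median ran from -0.18 to -0.075 for astrocyte and from 0.044 (without A6) to 0.16 for endothelial markers. Without A3 and A4 the median was 0.19 for endothelial, -0.64 for choroid plexus and -0.0056 for cortical neuron markers. Of 4 red blood cell genes tested, Hba-a1 was lowest at -1.85 and only Hba-a2 had a positive log2 fold change. Hba-a2 was listed at 0 in A1 to A4 and at 65.04 and 29.98 FPKM in A5 and A6. Hbb-b1 was at -0.10 with all mice and turned to 1.02 without A4. Near-identical globin copies may share fragments. The list median of -0.71 was -0.27 without A4, -1.07 without A6 and 0.041 without A3 and A4. The sex-linked genes tested were Eif2s3y at 0.72 (0.040 without A4) and Xist at 0.67 (-0.34 to 1.19 over the alternatives). Their median of 0.70 was 0.18 without A3, 0.41 without A4 and -0.11 without both. With all 6 mice at equal weight, in none of these marker lists did a gene pass the threshold in limma. Over the alternatives, adjusted p-values in limma ran from 0.0413 (without A5) to 0.892 for Aif1 and from 0.0950 (with array weights) to 0.392 for Ttr. They ran from 0.0535 (without A6) to 0.892 for Hba-a1 and from 0.00118 (without A4) to 0.892 for Hba-a2, which also passed without A3 and A4. The part of these markers in the levels of Ifngr1 and the other members was not tested.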

How the data were processed

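Poly(A) libraries were sequenced as paired-end reads, aligned with TopHat and quantified with RSEM on the mouse build mm9, as far as the submitters' processing notes and methods state; versions are not given in the sources used here. The authors deposited FPKM per gene, normalized across libraries by TMM and rounded to 2 decimals, so no count test was run. Genes whose mean reached 0.5 FPKM were tested on log2(FPKM + 1) with limma 3.58.1 in R 4.3.3 (lmFit, eBayes with a trend), with Benjamini-Hochberg adjustment over all genes tested. The fit and the depth estimate were also run on simulated data, and the outcome is not reported here. Depth was estimated from 1813 genes with a single GENCODE M21 transcript of 400 to 1500 bases. Members and lists were chosen with earlier results of these data known. Named genes were the members, the extremes of each list, defining markers, next steps of the pathway and the 3 nearest profiles of the member with the largest change in each role. Alternatives were another pseudocount, filter, scaling, variance model, mouse weights or threshold, and leaving out mice. Sequence windows came from RefSeq, whose build (GRCm38.p6) is not that of the table. Some genes and 1 sequence are not reported here.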

Additional observations from a re-analysis of the deposited data

How the results depend on the processing

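The number of members past the threshold was 0 in every alternative tried, and the lowest adjusted p of any member was 0.242 in limma. Of 111 fold changes of members under 14 alternatives, 94 kept their direction and 17 changed it, the latter by no more than 0.16 from 0 on the log2 scale; the cause was not tested. Ifngr1 and Tyk2 kept their direction in all. Socs3 was not tested at a minimum mean of 1 FPKM. Ifnar1 became 0.0016 with median-of-ratios scaling and 0.0037 with array weights, with which Ifngr2 became 0.0036 and Socs3 -0.0015. Leaving out A3 and A4 together, an alternative chosen after seeing the data, gave 0.038 for Ifnar1, -0.0071 for Ifnar2, -0.056 for Jak2 and -0.16 for Socs3, and -0.025 for the median of gp130 genes. The same alternative gave -0.063 for Ifngr2, -0.051 for Jak1 and 0.090 for Tyk2. With each mouse left out in turn, log2 fold changes ran from -0.037 to 0.056 for Ifnar1, -0.046 to 0.13 for Ifnar2, -0.11 to 0.041 for Ifngr2, -0.040 to 0.0081 for Jak1, -0.023 to 0.15 for Jak2 and -0.15 to 0.28 for Socs3, and the difference of Socs1, not among the 111, from -0.25 to 0.14. List medians then ran from -0.11 to 0.032 for the remaining JAK and SOCS genes and from -0.13 to -0.051 for gp130 genes. Members whose groups did not overlap numbered 1 to 2 of 8 with a mouse left out, also chosen after seeing the data. The share over all genes rose likewise, from 17.6% to between 23.6% and 32.7%. Genes past the threshold over all genes, 4 with all mice, numbered 2 to 29 with a mouse left out, 2 without the trend and 20 with array weights. Rescaling moved the median of all genes by at most 0.0054. The length and identity of member proteins were not analysed here. With 3 mice per group, a wide spread between mice and few fragments both limit what can be said of Socs1 and Socs3.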
